A study of Mus musculus with 15 samples.

Results

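The carboxylesterases are a family of serine hydrolases that cleave ester, thioester and amide bonds. In liver cells they lie mostly in the lumen of the endoplasmic reticulum, where they hydrolyse drugs, insecticides and other foreign esters, and several of them also act on stored triglyceride and cholesteryl ester. In the mouse the Ces1 subfamily is a tandem gene cluster, and the Ces2 subfamily forms another further along the same chromosome. The genes described here were those whose probe on the array carried a symbol starting with Ces and a digit, or a description naming a carboxylesterase, after symbols were brought up to date. This gave 24 probes of 16 genes, out of 21335 genes with a symbol on the array. By the deposited words alone it gave 13 probes of 8 genes. The others came in through older names, such as Es1 for Ces1c, AU018778 for Ces1f and EG13909 for Ces3b. Ces3b and Ces1f were selected on their measured values in these arrays, the large differences between the groups, so those values are given as a description, with no test. The other 14 genes were found by name. Ces1a, Ces2d-ps, Ces2h and Ces3a, which the RefSeq gene table also lists, were not analysed here.

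RNA was measured in liver or liver tumor tissue of FVB/N mice, an inbred strain, on 15 Agilent arrays with 1 Cy3-labelled sample each. There were 4 groups, and every mouse carried LAP-tTA, a transgene that makes a tetracycline-controlled activator from a liver promoter. The regression group (4 arrays) was tumor tissue of LAP-tTA x TRE-MYC mice kept 8 to 9 weeks without doxycycline, which switches MYC on, and then given doxycycline again for 72 hours, which switches it off. The tumor group (4 arrays) was tumor nodules of the same genotype, 8 to 9 weeks without doxycycline. The pre-tumor group (4 arrays) was tumor-free liver of that genotype, 4 to 5 weeks without doxycycline. The control group (3 arrays) was liver of mice with LAP-tTA alone. No time without doxycycline is given for it in the sources used here. All mice had eaten doxycycline chow (200 mg/kg) until they were over 8 weeks old. Whether the arrays of a group came from separate animals is not given in the sources used here, so p-values measure only the spread between these samples, which may in part be technical.

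Between 46.4% and 90.8% of the spots of an array were well above background, and no spot was saturated. Each slide held at most 1 array of a group. Of the 3 Myc probes, the one that followed the labels (A_52_P108346) lay at -0.82 to -0.10 in regression, 3.66 to 4.81 in tumor, 0.09 to 2.49 in pre-tumor and -1.63 to -0.23 in control arrays. Levels throughout are log2 signals relative to the 75th percentile of the same array, so that 0 is a fairly bright spot and 1 unit is a doubling. On the other 2 Myc probes, the brightest one (A_52_P278549) among them, every tumor array lay below every control array, so the probes run in opposite directions. Of the 8 hepatocyte markers tested, 7 fell in tumors relative to control livers (against 7.01% of all genes), albumin (Alb) by 2.34 ± 0.44. Their mean level over the 8 genes was 5.80 to 6.66 in regression, 3.67 to 5.30 in tumor, 6.29 to 7.94 in pre-tumor and 6.56 to 7.11 in control arrays. In whole tissue, fewer cells of a type and less RNA per cell cannot be told apart. The part of this marker shift in the results below was not tested.

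All 16 genes lie on chromosome 8, by the mm9 coordinates of their probes in the files. Ces1b, Ces1c, Ces1d, Ces1e, Ces1f, Ces1g, Ces1h and Ces5a lie in band 8qC5, with the probes used here between chr8:95946543-96403320, on the minus strand (a further, dim Ces5a probe maps to the plus strand). Ces2a, Ces2b, Ces2c, Ces2e, Ces2f, Ces2g, Ces3b and Ces4a lie in band 8qD3, with the probes used here between chr8:107628436-108038888, on the plus strand. Neighbours in these clusters are close paralogs. The probes' sequences were not used here, so signal that a probe takes from a neighbour's RNA was not tested.

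The RefSeq promoter table (build GRCm38.p6) held windows from 250 bases before to 50 bases after the start for 13 of the 16 genes, 14 windows in all. Ces1d, Ces1f and Ces2b had none. The windows of 4 genes are shown because these genes give the patterns that follow, in the values used here. Ces3b had the largest difference between tumor and control, and Ces1c the largest among the genes tested. Ces1g lay at about the control level in regression, and Ces5a had no call in any comparison. The windows read 5′ to 3′ on the gene's strand. Capitals mark matches, on either strand, to the letters searched, and the Ces5a window has none. Ces3b is at chr8:105083505-105083804 (plus strand), Ces1c at chr8:93131234-93131533, Ces1g at chr8:93337160-93337459 and Ces5a at chr8:93535791-93536090 (all 3 on the minus strand).
Ces3b: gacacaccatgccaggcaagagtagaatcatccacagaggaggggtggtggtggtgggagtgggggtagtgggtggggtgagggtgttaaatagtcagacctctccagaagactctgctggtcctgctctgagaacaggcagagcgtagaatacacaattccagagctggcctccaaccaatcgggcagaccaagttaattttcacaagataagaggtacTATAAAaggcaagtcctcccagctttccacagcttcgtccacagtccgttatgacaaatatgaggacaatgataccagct
Ces1c: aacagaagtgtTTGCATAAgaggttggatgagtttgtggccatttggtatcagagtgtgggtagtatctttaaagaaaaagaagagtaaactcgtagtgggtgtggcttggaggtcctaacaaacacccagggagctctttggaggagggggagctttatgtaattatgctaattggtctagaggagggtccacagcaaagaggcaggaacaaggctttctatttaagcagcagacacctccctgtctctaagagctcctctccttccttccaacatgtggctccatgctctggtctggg
Ces1g: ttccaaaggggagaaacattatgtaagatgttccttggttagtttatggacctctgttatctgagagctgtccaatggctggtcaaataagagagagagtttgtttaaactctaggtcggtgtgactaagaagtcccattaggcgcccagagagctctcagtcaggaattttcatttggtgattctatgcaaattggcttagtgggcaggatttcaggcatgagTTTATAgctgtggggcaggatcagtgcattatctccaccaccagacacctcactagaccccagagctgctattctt
Ces5a: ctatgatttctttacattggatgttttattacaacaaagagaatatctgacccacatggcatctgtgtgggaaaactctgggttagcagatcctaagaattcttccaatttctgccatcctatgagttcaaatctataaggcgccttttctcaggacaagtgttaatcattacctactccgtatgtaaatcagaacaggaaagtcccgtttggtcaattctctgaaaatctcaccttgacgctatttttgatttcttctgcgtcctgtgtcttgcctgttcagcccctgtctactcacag

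The search took 4 sets of letters, on both strands of these windows and of all 32851 windows of the table. No match overlapped a match to another set in the 14 windows. The E-box CACGTG, the letters that MYC with its partner MAX is known to bind, was in 0 of the 14 carboxylesterase windows and in 7.15% of all windows. TATAAA was in 3 of the 14 (Ces1g, Ces1h and Ces3b) and in 13.6% of all windows. In Ces3b it began 30 bases before the start, and in Ces1g 26 bases before it, on the other strand (tttata as printed). TTGCNNAA, a core of sites bound by C/EBP factors, was in 6 of the 14 windows, of 5 genes (Ces1b, Ces1c, Ces2a, Ces2e and Ces4a), and in 10.8% of all windows. AGGTCA, a site to which many nuclear receptors bind as 1 part of a pair, was in 2 of the 14 (Ces2a and Ces4a) and in 16.3% of all windows. A match describes letters only, and the windows cover a small part of the regulatory DNA of a gene.

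The comparison of tumors with control livers set tumor tissue after 8 to 9 weeks of MYC against liver without the TRE-MYC transgene. Genotype, tumor tissue and time with MYC cannot be told apart in it. The carboxylesterases fell almost as a family: 12 of the 14 genes tested were lower in tumors and 0 were higher (limma, Benjamini-Hochberg adjusted p under 0.05). Over all genes tested, 7.01% were called lower and 9.41% higher. The median difference over these 14 genes was -4.38, beside -0.18 over all genes. In 13 of the 14 every tumor array lay below every control array, as in 11.9% of all genes.

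The 6 tested genes of the Ces1 subfamily all fell, with differences of -6.93 to -4.07. Ces1c, known in the mouse as an esterase secreted into plasma, had -1.04, 0.63, -1.73 and 0.16 on the tumor arrays, against 6.45, 6.33 and 6.53 on the control arrays. The groups were far apart, and the control arrays lay within 0.20 of each other while the tumor arrays spread over 2.35. The difference was -6.93 ± 0.49 (SE), a 122-fold fall with an adjusted p of 1.89e-07. Ces1d, a triacylglycerol hydrolase that mobilises stored fat for very-low-density lipoprotein (VLDL) assembly, had -0.91, 0.55, -1.40 and -0.25 on the tumor arrays, against 6.38, 6.22 and 5.71 on the control arrays. It fell by 6.60 ± 0.44 (adjusted p = 1.24e-07). Both genes were still well above background on all 4 tumor arrays.

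Ces1b fell by 6.61 ± 0.47 (adjusted p = 1.89e-07) and was well above background on 2 of the 4 tumor arrays. Ces1e, the egasyn that anchors beta-glucuronidase in the endoplasmic reticulum, had -1.38, -0.01, -3.33 and -1.54 on the tumor arrays, against 4.74, 5.10 and 3.68 on the control arrays. It fell by 6.07 ± 0.63 (adjusted p = 5.75e-06), and tumor 3, the array with the fewest spots above background, gave its lowest value. Ces1h, well above background on tumor 4 alone among the tumor arrays, fell by 4.30 ± 0.47 (adjusted p = 1.06e-05). Ces1g, a lipid hydrolase whose loss in mice raises liver and blood lipids, fell by 4.07 ± 0.66 (adjusted p = 0.000425). Its tumor values were -4.31, -3.79, -4.34 and -0.87, against 1.56, 0.52 and 0.15 on the control arrays. Of the tumor arrays only tumor 4 was well above background, and without it the difference was -4.89 (adjusted p = 1.83e-06).

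All 6 Ces2 genes fell in tumors, 5 of them with differences of -4.72 to -3.08 and Ces2f with a bound. Ces2c, a drug-metabolising esterase of mouse liver that also hydrolyses triglyceride, had -0.90, -0.64, -0.82 and -0.78 on the tumor arrays, against 4.45, 3.40 and 3.95 on the control arrays. On this brightest probe the 4 tumor values were the tightest of any gene in the family, within 0.26 of each other, and well above background. The difference was -4.72 ± 0.35 (adjusted p = 2.87e-07). Ces2e, which hydrolyses pyrethroid insecticides, fell by 4.47 ± 0.48 (adjusted p = 8.49e-06). Ces2g (-3.54 ± 0.49), Ces2a (-3.29 ± 0.41) and Ces2b (-3.08 ± 0.53) also fell, with adjusted p between 3.62e-05 and 0.000726. Ces2g was well above background on 1 of the 4 tumor arrays and Ces2b on 2. Ces2f was not well above background on any tumor array, with -4.03, -4.88, -3.10 and -3.86, against 1.85, 1.31 and 0.60 on the control arrays. It was at least 18.2-fold lower in tumors (adjusted p = 1.13e-06). Such a bound sets the mean of the bright group against the mean of the higher of 2 values on each dim array, the probe's own signal and the lowest signal there that is well above background.

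Ces3b, a liver carboxylesterase outside both subfamilies, had -1.80, -2.39, -4.02 and -1.90 on the tumor arrays, against 5.65, 5.73 and 6.53 on the control arrays. The lowest value was again that of tumor 3, the only array on which Ces3b was not well above background. The difference of -8.50 ± 0.55 was the largest of the family in the values used here. Ces1f, another triacylglycerol hydrolase of the Ces1 cluster, had -4.87, -4.99, -4.04 and -5.80 on the tumor arrays, none well above background, against 0.16, 0.23 and -0.15 on the control arrays. It was at least 8.05-fold lower in tumors.

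Ces4a and Ces5a were not called. Ces4a was dim, with -4.73, -3.51, -3.80 and -2.72 on the tumor arrays and -2.17, -2.03 and -1.59 on the control arrays. Its difference was -1.76 ± 0.68 (adjusted p = 0.0964), although the groups did not overlap. It was called in 2 of 28 alternative analyses, 1 of them with only these groups in the fit (adjusted p = 0.0445). Over the alternatives its smallest difference was -0.13 and its largest adjusted p was 0.359. Ces5a, known in the cat as the urinary protein cauxin, had -2.02, -0.94, -2.16 and -1.76 on the tumor arrays and -1.43, -0.77 and -1.24 on the control arrays. These ranges overlapped, with a difference of -0.58 ± 0.43 (adjusted p = 0.422).

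**Figure D1:**
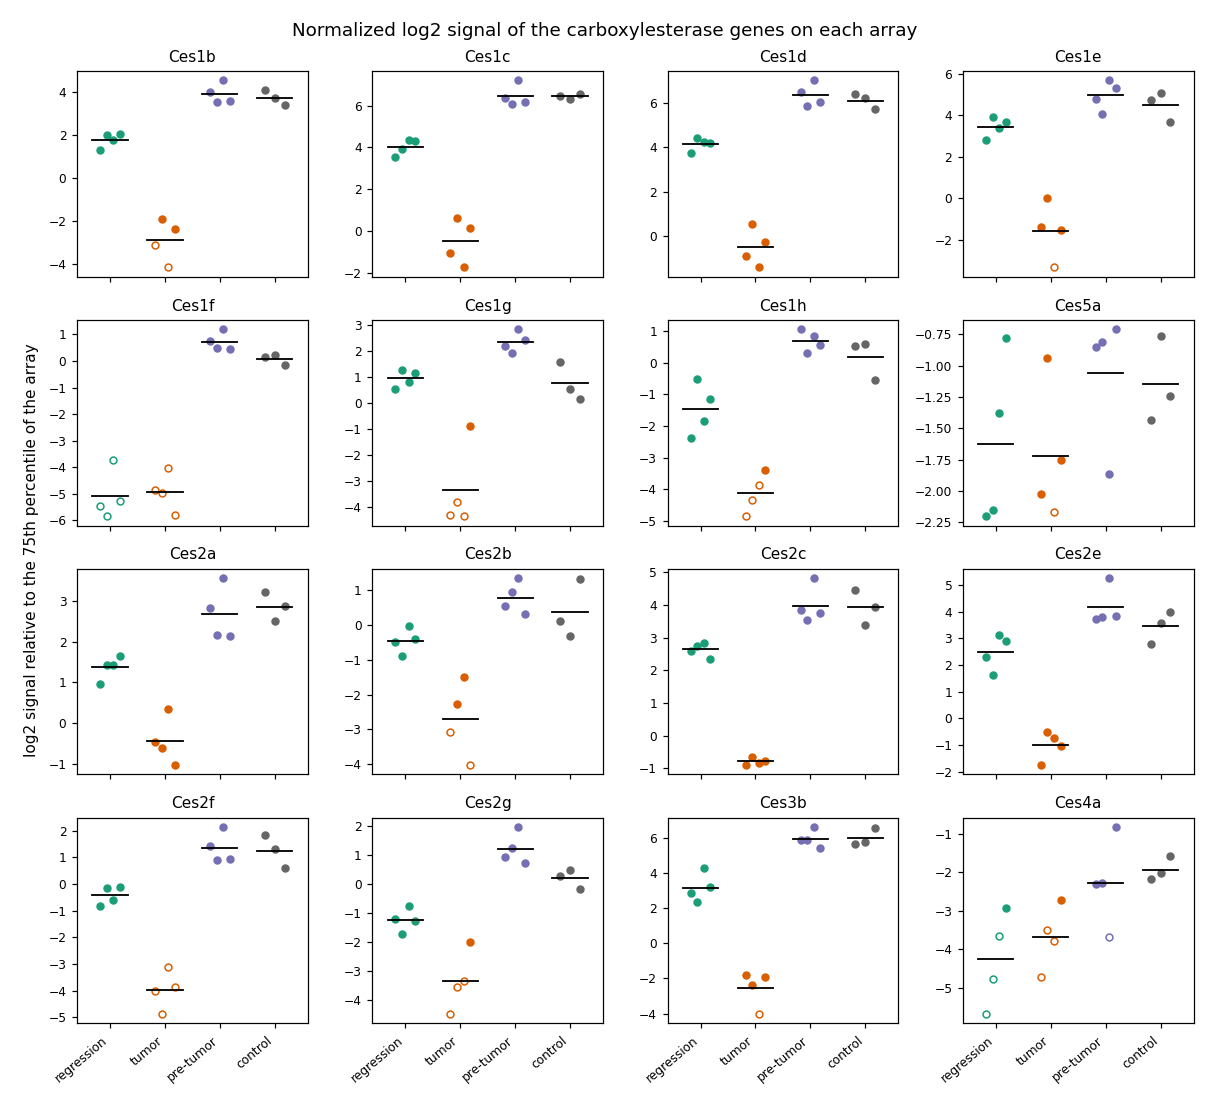
Log2 signal of each carboxylesterase gene relative to the 75th percentile of the array (y axis, own scale in each panel) in the regression (4 arrays), tumor (4), pre-tumor (4) and control (3) groups, by the brightest probe of the gene. Points are arrays, filled where the probe was well above background and open where it was not, and bars are group means. Ces1c lies at -1.73 to 0.63 in tumors and at 6.33 to 6.53 in controls, Ces1f is open in all regression and tumor arrays, and the groups of Ces5a overlap.

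The size of these falls depended on how the background was treated. With normexp correction and an offset, the median difference over the 14 genes was -1.76, and in the authors' deposited table, whose background treatment is not stated, it was -2.66. Ces3b then differed by -5.16 and -6.58, and Ces1f by -0.90 and -2.03. The smallest Ces1c difference over the 28 alternatives was -5.39, so with normexp Ces3b did not have the largest. For Ces2f the smallest was -1.54, so its bound did not hold in every alternative. The 12 calls held in all 28 alternatives. Beside these calls, median centring moved the share of higher genes among all calls to 68.7%, against 57.3% in the values used here, and put the median of all genes at 0.14, against -0.18.

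Tumors were also compared with the pre-tumor livers of the same genotype, in which MYC had been on for 4 to 5 weeks. The tumor mice had been 8 to 9 weeks without doxycycline. Tumor tissue and a longer time with MYC therefore cannot be told apart in this comparison. The same 12 genes were lower in tumors and 0 were higher, where 9.08% of all genes were called lower and 10.1% higher (with median centring, 62.9% of calls were higher, against 52.6%). The median difference over the 14 genes was -5.00, beside -0.12 over all genes. Both comparisons use the same tumor arrays. Ces1c differed by -6.96 ± 0.45 (adjusted p = 4.41e-08) and Ces2c by -4.77 ± 0.33 (adjusted p = 6.73e-08). Ces1g, at 2.18, 1.91, 2.83 and 2.42 on the pre-tumor arrays, fell by 5.66 ± 0.61 in tumors (adjusted p = 6.58e-06). Ces2f was at least 19.4-fold lower (adjusted p = 2.90e-07). Its smallest difference over the 28 alternatives was -1.60, so this bound did not hold in all of them. Ces3b, with 5.88, 5.86, 6.61 and 5.39 on the pre-tumor arrays, differed by -8.46 ± 0.51, and Ces1f was at least 12.5-fold lower. With normexp Ces1f differed by -1.23, and in the authors' deposited table by -2.54. Ces4a (-1.42 ± 0.63, adjusted p = 0.146) and Ces5a (-0.66 ± 0.40, adjusted p = 0.305) were again not called. Ces4a was called in 2 of the 28 alternatives, 1 of them without pre-tumor 3 (-1.89, adjusted p = 0.0465). Over the alternatives its smallest difference was -0.18 and its largest adjusted p was 0.480.

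Regressing tumors were compared with tumors to see what accompanied 72 hours of renewed doxycycline, which switches MYC off. The drug itself and the loss of MYC cannot be told apart here. The same 12 genes were higher in regression and 0 were lower, where 8.36% of all genes were called higher and 8.48% lower. The median difference over the 14 genes was 3.47, beside -0.13 over all genes. In 12 of the 14 every regression array lay above every tumor array, as in 10.8% of all genes. The median was 1.04 with normexp, 1.71 in the authors' deposited table and 2.72 with the probes of a gene averaged.

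The largest difference was again that of Ces3b, with 2.86, 2.33, 4.29 and 3.17 on the regression arrays, against -1.80, -2.39, -4.02 and -1.90 on the tumor arrays. It was 5.69 ± 0.51 higher in regression, 2.69 with normexp and 3.96 in the authors' deposited table. Over the 28 alternatives the smallest rises of Ces1d, Ces1c and Ces1e were 3.42, 3.25 and 3.12. With normexp Ces3b was therefore not the gene with the largest rise. Among the genes tested, Ces1e rose most, by 5.02 ± 0.58 (adjusted p = 4.53e-05), with 2.83, 3.92, 3.39 and 3.71 on the regression arrays. Ces1b rose by 4.66 ± 0.43, Ces1d by 4.66 ± 0.40 and Ces1c by 4.54 ± 0.45, with adjusted p between 5.31e-06 and 1.18e-05. Ces1d had 3.76, 4.41, 4.25 and 4.20 on the regression arrays, a spread of 0.65 where the tumor arrays spread over 1.95.

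Ces1g rose by 4.28 ± 0.61 (adjusted p = 0.000244), with 0.55, 1.26, 0.82 and 1.16 on the regression arrays. Without tumor 4 the rise was 5.09 (adjusted p = 6.60e-06). Ces1h rose by 2.64 ± 0.44 (adjusted p = 0.000697), a call that was lost with normexp, where the rise was 0.37 (adjusted p = 0.0662). The Ces2 genes other than Ces2f rose by 1.80 to 3.51. Ces2c had 2.60, 2.76, 2.85 and 2.35 on the regression arrays and rose by 3.43 ± 0.33 (adjusted p = 9.46e-06). Ces2e rose by 3.51 ± 0.45, Ces2b by 2.25 ± 0.49, Ces2g by 2.11 ± 0.45 and Ces2a by 1.80 ± 0.38, with adjusted p between 9.56e-05 and 0.00492. Ces2f was well above background on all 4 regression arrays and at least 5.73-fold higher than in tumors (adjusted p = 5.41e-05). Its smallest rise over the 28 alternatives was 0.66 on the log2 scale, so this bound did not hold in all of them.

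Ces1f did not come back with its neighbours. It had -5.45, -5.84, -3.72 and -5.27 on the regression arrays, against -4.87, -4.99, -4.04 and -5.80 on the tumor arrays. None of these 8 values was well above background, so no fold is given. Its cluster neighbours Ces1e and Ces1g were both well above background on all 4 regression arrays. Among the genes tested, Ces4a (-0.58 ± 0.63, adjusted p = 0.682) and Ces5a (0.09 ± 0.40, adjusted p = 0.942) did not pass.

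**Figure D2:**
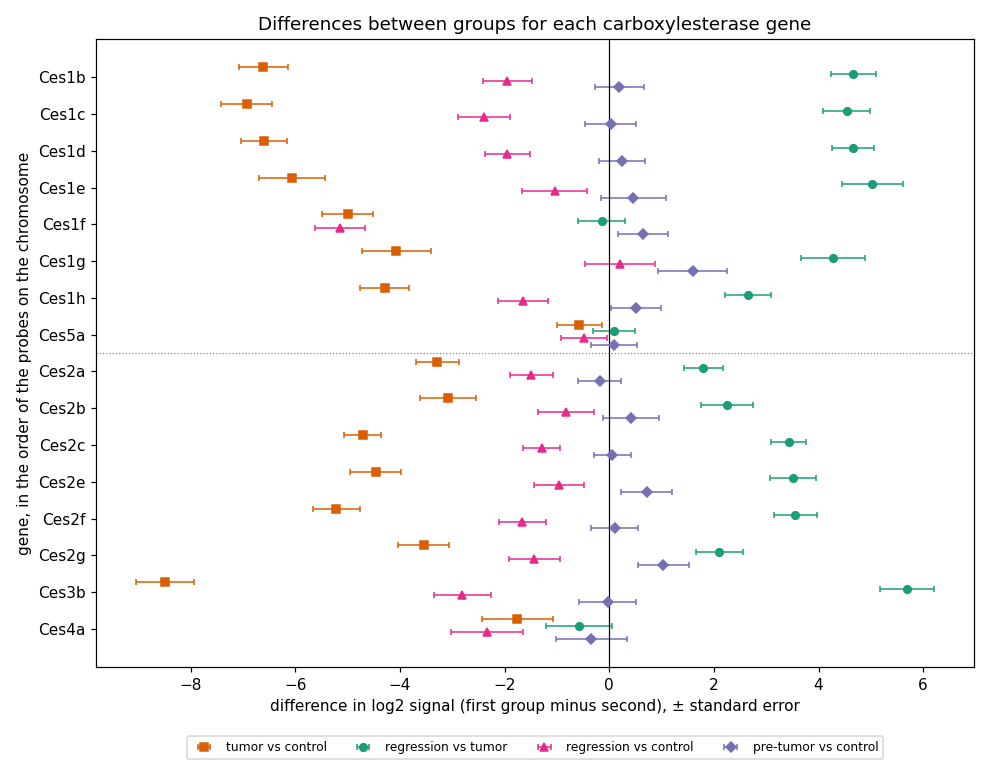
Differences in log2 signal (x axis, first group minus second, with standard errors) for each carboxylesterase gene (y axis, in the order of the probes along chromosome 8, the dotted line parting the Ces1 and Ces5a cluster from the Ces2, Ces3b and Ces4a cluster). Squares are tumor vs control, circles regression vs tumor, triangles regression vs control and diamonds pre-tumor vs control; estimates for Ces1f in regression and tumor and for Ces2f in tumor rest on signals not well above background. Tumor vs control runs from -8.50 for Ces3b to -0.58 for Ces5a, and regression vs control from -5.15 for Ces1f to 0.20 for Ces1g.

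Regressing tumors were last set against control livers. Genotype, tumor tissue and the 72 hours of renewed doxycycline cannot be told apart in this comparison. Of the 14 genes, 8 were lower in regression and 0 were higher, where 3.30% of all genes were called lower and 5.04% higher (with median centring, 72.2% of calls were higher, against 60.4%). The median difference over the 14 genes was -1.47, beside -0.25 over all genes. The count rests on few arrays. It was 2 without control 1 or without regression 1, 3 without regression 3, 4 without regression 2, and 5 without control 2 or control 3. It was 4 with slide as a block or with median centring, and 1 without the 4 arrays with the highest signal of the E1A spike-in controls (pre-tumor 4, control 1, tumor 4 and pre-tumor 1). The median was -0.79 with normexp and -0.94 in the authors' deposited table. Ces1c was called lower in all 28 alternatives.

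The genes lower in regression were Ces1b, Ces1c, Ces1d, Ces1h, Ces2a, Ces2c, Ces2f and Ces4a, by 1.29 to 2.40 on the log2 scale. Ces1c had 3.55, 3.94, 4.36 and 4.31 on the regression arrays, against 6.45, 6.33 and 6.53 on the control arrays, and fell by 2.40 ± 0.49 (adjusted p = 0.00522). Ces1d fell by 1.95 ± 0.44 (adjusted p = 0.0102) and Ces2c by 1.29 ± 0.35 (adjusted p = 0.0345). Ces4a, well above background on 1 of the 4 regression arrays, fell by 2.34 ± 0.68 (adjusted p = 0.0459), a call that was lost in 16 alternatives. In the values used here, the 3 genes with the largest remaining gaps below control were Ces1f, Ces3b and Ces1c. Ces1f was at least 11.6-fold lower in regression, and its difference was -0.89 with normexp and -1.90 in the authors' deposited table, so the bound holds only for the background treatment used here. Ces3b differed by -2.81 ± 0.55.

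The other 6 genes did not pass the test. Ces1g lay at 0.55, 1.26, 0.82 and 1.16 on the regression arrays, against 1.56, 0.52 and 0.15 on the control arrays. These ranges overlapped, with a difference of 0.20 ± 0.66 (adjusted p = 0.888). Ces1e (-1.05 ± 0.63), Ces2e (-0.96 ± 0.48) and Ces2b (-0.83 ± 0.53) also overlapped with the controls. Ces2g (-1.44 ± 0.49, adjusted p = 0.0824) did not overlap but missed the threshold, and it was called in 5 alternatives. Ces5a differed by -0.48 ± 0.43. A p above the threshold does not show that these genes had returned to the control level.

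Markers of some other cell types were higher in the regression arrays. Of all genes tested, 3.30% were called lower in regression than in controls and 5.04% higher. The mean level of the 8 stellate cell and fibroblast markers was 1.11 to 2.89 in regression, against -0.24 to 0.46 in tumor and -1.06 to -0.85 in control arrays, and 5 of the 8 were higher in regression than in controls and 0 lower. The 8 macrophage markers averaged 1.93 to 3.10 in regression, 0.69 to 1.06 in tumor and 0.39 to 1.59 in control arrays. Of these, 5 were higher in regression than in controls and 1, Marco, was lower (-2.99 ± 0.62, adjusted p = 0.00612). Against controls, 3 of the 7 endothelial markers were higher and 1 lower, 3 of the 4 T and NK cell markers were higher and 0 lower, and 1 of the 7 bile duct markers was higher and 0 lower. By limma, 0 of the 4 B cell, 0 of the 4 erythroid and 0 of the 3 kidney and intestine markers were called in regression against controls. Against tumors, 6 of the 8 stellate and fibroblast, 5 of the 8 macrophage and 5 of the 7 endothelial markers were higher in regression. So were 3 of the 4 T and NK cell, 3 of the 4 erythroid and 1 of the 7 bile duct markers. In each of these lists 0 were lower. Of all genes, 8.36% were called higher and 8.48% lower in regression than in tumors. In tumors against controls, 4 of the 8 stellate and fibroblast markers were higher and 0 lower. Of the 8 macrophage markers 2 were higher and 2 lower. Lower were also 2 of the 7 endothelial, 1 of the 7 bile duct and 1 of the 4 erythroid markers, with 0 higher. Of all genes, 7.01% were called lower and 9.41% higher in tumors than in controls. The part of these marker shifts in the carboxylesterase levels was not tested.

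Pre-tumor livers were compared with control livers to see whether 4 to 5 weeks of MYC had changed the family before tumors appeared. No carboxylesterase was called in either direction, where 0% of all genes were called lower and 0% higher by limma. At an unadjusted p under 0.05 there were 504 genes, of which 1 was a carboxylesterase. The median difference over the 14 genes was 0.21, beside -0.04 over all genes. Ces3b (-0.03 ± 0.55) and Ces1c (0.03 ± 0.49) had nearly the same mean in both groups. In 2 of the 14 genes every pre-tumor array lay above every control array, as in 1.89% of all genes. Ces1g had 2.18, 1.91, 2.83 and 2.42 on the pre-tumor arrays, against 1.56, 0.52 and 0.15 on the control arrays, a difference of 1.59 ± 0.66. Ces2g had 0.96, 1.26, 1.98 and 0.74, against 0.28, 0.51 and -0.18, a difference of 1.03 ± 0.49. Ces1f, selected on its values, differed by 0.64 ± 0.48. Neither Ces1g nor Ces2g passed the test (adjusted p = 1.00 for both).

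The group means came in 1 order, tumor lowest, then regression, then control, then pre-tumor, in 11 of the 16 genes. In all of these 11 but Ces2g the ranges of control and pre-tumor overlapped. Those of regression and control overlapped in Ces1e, Ces1h, Ces2b, Ces2e and Ces5a, and those of tumor and regression in Ces5a. How many of all genes have this order was not counted. Ces2a and Ces3b had the same order with control above pre-tumor, again with overlapping ranges. Ces1g had regression above control, with overlap, and Ces1f and Ces4a had regression lowest, overlapping with tumor. Within the pre-tumor group, array 3 gave the highest value in 13 of the 16 carboxylesterases, where it did so in 32.5% of all genes. Within the regression group, array 1 gave the lowest value in 10 of the 16, where it did so in 37.0% of all genes.

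A further probe was present for 8 of the genes, and pairs of probes did not always give the same size of change. For Ces1c, Ces1g and Ces2c both probes gave the same calls in all 5 comparisons. The other Ces2c probe (A_52_P318361) was, however, well above background on 0 tumor arrays, where it spread over 1.375. For Ces1b, the brightest probe (A_52_P282905) rose by 4.66 ± 0.43 in regression relative to tumor, and the other (A_52_P180988) by 0.95 ± 0.44 (adjusted p = 0.186). That other probe had -2.74, -2.12, -1.51 and -1.67 in regression, against -3.36, -3.50, -2.59 and -2.38 in tumor, and was well above background on 1 tumor array. Relative to control livers the 2 probes were lower in regression by similar amounts, 1.95 ± 0.47 and 2.20 ± 0.48. In tumors they differed from control livers by unlike amounts, -6.61 ± 0.47 and -3.15 ± 0.48, both called. For Ces2b, the brightest probe (A_52_P627269) rose by 2.25 ± 0.50 in regression relative to tumor, and the other (A_51_P436567) by 0.67 ± 0.31 (adjusted p = 0.174). In tumors these 2 probes differed from control livers by -3.08 ± 0.54 and -1.12 ± 0.33 (adjusted p = 0.0293 for the other). The other was well above background on 3 tumor arrays and the brightest on 2. The other Ces2f probe (A_51_P455295) was well above background on 6 of 15 arrays and was called in no comparison. The other Ces2e probe failed the filter, and that of Ces5a was well above background on 3 arrays.

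**Figure D3:**
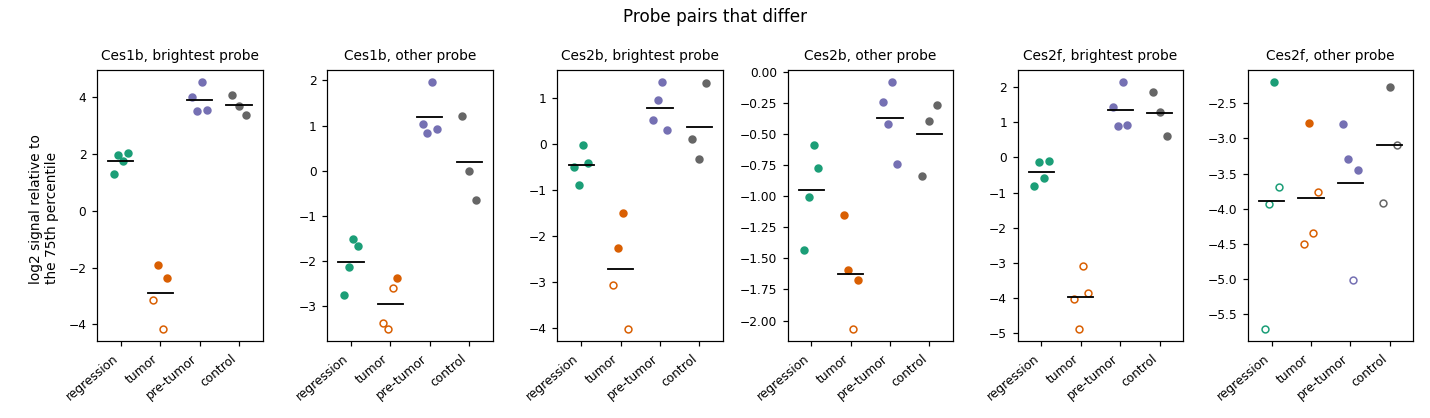
Log2 signal relative to the 75th percentile of the array (y axis, own scale in each panel) for both probes of Ces1b, Ces2b and Ces2f in the regression (4 arrays), tumor (4), pre-tumor (4) and control (3) groups. Points are arrays, filled where well above background, and bars are group means. The brightest Ces1b probe runs from 1.29 to 2.05 in regression and from -4.17 to -1.91 in tumor, while the other runs from -2.74 to -1.51 and from -3.50 to -2.38.

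The genes whose pattern was nearest to Ces3b over the 15 arrays were Serpina3c and Serpina3k, both liver-secreted serpins, with a root mean square difference of 0.37 and 0.39 between centred log2 values. C4bp (0.79), Ugt2b5 (0.81) and Ugt3a2 (0.81) followed. Within the family Ces1c was nearest to Ces3b, at 0.84, and Ces1f was much further, at 2.29. Nearest to Ces1f were the acute-phase gene Saa1 (0.66), the bile acid transporter Slc10a2 (0.71), the organic anion transporters Slco1a1 (0.74) and Slco1a5 (0.84), and Ugt2a3 (0.87). The nearest family member to Ces1f was Ces2g, at 1.63. The Ces1f values below background enter these distances.

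Other enzymes that cleave esters and lipids were described from a list of 39 genes, of which 38 were tested. In tumors 13 were lower than in control livers (against 7.01% of all genes) and 1 was higher (against 9.41%). The median was -0.65, beside -0.18 over all genes. The paraoxonase Pon1 fell by 7.55 ± 0.56 (adjusted p = 2.79e-07), Pon3 by 2.86 ± 0.43 (adjusted p = 0.000234) and the arylacetamide deacetylase Aadac by 2.78 ± 0.44 (adjusted p = 0.00031). The monoglyceride lipase Mgll differed by -1.26 (adjusted p = 0.0514). In regression 13 were higher (against 8.36% of all genes) and 2 lower (against 8.48%) than in tumors. Aadac rose by 2.89 ± 0.40 (adjusted p = 0.000193) and Lpl, which clears blood triglyceride, by 2.42 ± 0.38 (adjusted p = 0.000435), while the thioesterase Acot7 fell by 2.13 ± 0.31 (adjusted p = 0.000303). Relative to control livers, 3 were lower in regression (against 3.30% of all genes) and 4 higher (against 5.04%). Pon1 was lower by 4.20 ± 0.56 (adjusted p = 0.000211), so that, like Ces3b, it lay between the tumor and the control level.

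Triglyceride synthesis, lipid droplets and VLDL assembly, where Ces1d and Ces1g act, were described from 31 genes. In tumors 9 were lower than in control livers (against 7.01% of all genes) and 2 higher (against 9.41%). The median was -0.77, beside -0.18 over all genes. Apoc3, an inhibitor of lipoprotein lipase, fell by 6.29 ± 0.66 (adjusted p = 1.02e-05) and Apob, the VLDL scaffold, by 2.65 ± 0.49 (adjusted p = 0.00116). Soat1, which esterifies cholesterol, rose by 4.29 ± 0.68 (adjusted p = 0.000346). In regression 6 were higher than in tumors (against 8.36% of all genes) and 0 lower (against 8.48%). Among the 6 were Tm6sf2 (1.76 ± 0.36, adjusted p = 0.00289), Apob (1.78 ± 0.45, adjusted p = 0.0118) and the droplet coat protein Plin2 (2.04 ± 0.53, adjusted p = 0.0133). Relative to control livers, 3 were lower in regression (against 3.30% of all genes) and 2 higher (against 5.04%).

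Regulators of drug-metabolism genes, including nuclear receptors that respond to foreign compounds, were described from 17 genes. In tumors 8 were lower than in control livers (against 7.01% of all genes) and 0 higher (against 9.41%). The median was -1.17, beside -0.18 over all genes. Por, the reductase that feeds electrons to cytochromes P450, fell by 3.07 ± 0.63 (adjusted p = 0.00267), and so did Cyb5a (-2.04 ± 0.38, adjusted p = 0.00138) and the bile acid receptor Nr1h4 (-2.19 ± 0.53, adjusted p = 0.00866). In regression 1 was higher than in tumors (against 8.36% of all genes) and 1 lower (against 8.48%), so these counts do not set the list apart. The pregnane X receptor Nr1i2 rose by 1.61 ± 0.41 (adjusted p = 0.0128). Relative to control livers 2 were lower in regression (against 3.30% of all genes) and 0 higher (against 5.04%). Hnf4a was lower by 1.63 ± 0.40 (adjusted p = 0.0184) and Cyb5a by 1.56 ± 0.38 (adjusted p = 0.0185). In pre-tumor livers 0 genes of the 3 lists were called against control livers by limma.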

How the data were processed

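RNA of 15 mouse liver or tumor samples was hybridised to 1-colour Agilent arrays. Per the file headers, the authors read the images with Feature Extraction 10.5.1.1, and the deposited processed signal is a background-subtracted intensity on a linear scale, not normalized between arrays. The authors' deposited table holds log2 intensity values whose normalization is not given in the sources used here, and it served as an alternative and for probe names.

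Processed signals were put on the log2 scale, and the 75th percentile of each array was subtracted. Outlier flags of Feature Extraction (non-uniform spots and population outliers) removed 0.452% of gene spots, and replicate spots were averaged. The filter asked for signal well above background on 3 or more arrays. A gene is represented by its brightest passing probe. Symbols of 4670 genes were updated from RefSeq (GRCm38.p6), in which 19957 of 21335 matched. Of these, 19234 genes passed, with all 16 carboxylesterases; Ces1f passed through pre-tumor and control arrays alone, and Ces2f through no tumor array. limma (3.58.1, R 4.3.3) fitted 1 model of the 4 groups with 11 residual degrees of freedom. Tests were two-sided, p-values were adjusted by Benjamini-Hochberg across the genes tested, and the threshold was 0.05. Ces3b and Ces1f got no p and were left out of counts. Values after ± are standard errors of the fit. The procedure was run on simulated data whose noise was independent between genes and arrays. It therefore could not test effects shared by the genes of an array.

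The rule for naming genes takes every carboxylesterase, up to 3 called members and 1 that was not called per list and comparison, the 5 genes nearest to Ces3b and to Ces1f among those well above background on at least 8 arrays, and Myc, Alb and Afp as checks; not all are printed, and 1 regulator is not reported here. The members and lists were chosen with earlier results of these data known. The 28 alternatives were other background corrections, scalings, filters, probe choices, blocks and variance models, and leaving out arrays. The files give no mean spot signal, so normexp (offset 50) used the median signal. The number of arrays limits the precision.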

Additional observations from a re-analysis of the deposited data

Results flagged for a closer look

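Of 48 groups of 4 arrays examined gene by gene, 3 held an array far from the others, and chance flags about 1 in 20 groups. For Ces1g, tumor 4 lay above the other tumor arrays by 0.842 of the group's whole range, at -0.87, where the others lay between -4.34 and -3.79. For Ces2e, pre-tumor 3 lay above the others by 0.923 of the range, at 5.26, where the others lay between 3.73 and 3.85. For Ces5a, pre-tumor 3 lay below the others by 0.878 of the range, at -1.86, where the others lay between -0.85 and -0.71.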

How the results depend on the processing

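The direction of every called carboxylesterase difference was the same in all 28 alternatives. The count of genes called was 12 to 13 for tumor vs control and for tumor vs pre-tumor, 11 to 12 for regression vs tumor, 1 to 9 for regression vs control and 0 for pre-tumor vs control. The median tumor vs control difference over the 16 genes, Ces3b and Ces1f included, was -4.59, and it was -1.76 with normexp, -4.28 with median centring and -2.66 in the authors' table. For tumor vs pre-tumor it was -5.25, and -1.97 with normexp and -3.00 in the authors' table; leaving out 1 array gave -5.39 to -4.93. For regression vs tumor it was 3.47, and 1.04 with normexp, 1.71 in the authors' table and 2.72 with the passing probes averaged. For regression vs control it was -1.57, and -0.85 with normexp, -1.27 with median centring and -1.06 in the authors' table. Its count of 8 genes was 4 with median centring, 4 with slide as a block, 1 without the 4 arrays of highest spike-in signal (pre-tumor 4, control 1, tumor 4 and pre-tumor 1), and 2 to 9 when 1 array was left out. Whether the replicate numbers pair the arrays was not settled. Same-numbered arrays of different groups deviated from their group means with correlations of -0.44 to 0.61 (median 0.12). Of 21 such pairs, 11 were over 0.1. For differently numbered arrays the correlations were -0.62 to 0.54 (median -0.04), and 16 of 63 pairs were over 0.1. With replicate number as a block, 13 genes were called lower in tumor vs control and 13 in tumor vs pre-tumor, with Ces4a at -2.17 (adjusted p = 0.00758) and -1.42 (adjusted p = 0.0381). The cause of these shifts was not tested. Signal over background limits the size of the differences. Ces1f was well above background on no tumor or regression array and Ces2f on no tumor array. Ces1g, Ces1h, Ces2g and Ces4a were so on 1 of 4 tumor arrays, and Ces1b and Ces2b on 2.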
